A study of Mus musculus with 48 samples.

Results

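JH-region junctions were the DNA junctions whose prey end, the sequence found joined to a JH bait, lay inside the JH cluster itself. They were chosen by position alone, as every junction of the complete JH1 to JH4 bait lists with prey on chromosome 12 between positions 114666725 and 114668044 of mm9. This window of 1320 bp holds the 4 JH segments of Igh, the immunoglobulin heavy chain locus of the mouse. In 25 libraries of 8 groups, 1500522 of 10275486 listed junctions (14.6%) met the rule. Counted once per library for each combination of prey position, prey strand and bait end, they came to 21060 distinct junctions summed over the libraries. A combination listed in several libraries enters this sum once for each. Each library held between 61194 and 1016401 listed junctions, of which 1040 to 888646 lay in the JH cluster.

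The assay was linear-amplification PCR-mediated high-throughput genome-wide translocation sequencing (LAM-HTGTS), which extends a primer from a bait site across whatever sequence has been joined to it. WT BM (3 libraries) and INV BM (4 libraries) were primary bone marrow pro-B cells from C57BL/6 mice, enriched on B220 beads and grown with the cytokines SCF (2 ng/mL) and IL-7 (10 ng/mL). INV cells carry an Igh inversion, and the genotype label of both groups also lists RAG1 deficiency. The labels state no RAG delivery for these cells, although their libraries held V(D)J joints, which RAG1-deficient cells cannot make, so this label is in doubt. A 4th WT BM replicate was not analysed here, because only the complete JH1 to JH4 lists were used. The other 6 groups came from v-Abl transformed pro-B lines, all with OsTIR1, an Emu-Bcl2 transgene and RAG1 deficiency, into which RAG was brought by retrovirus. Primary Untreated (3 libraries) had nothing further, the Wapl-degron line added a degron on Wapl, and the single Igh line added a single Igh allele to the Wapl-degron. Untreated lines received 3 uM STI-571 for 4 days. IAADox cells were given 150 uM IAA, an auxin, and 2 mg/mL doxycycline with STI-571 for the last 3 days. Wapl-degron and single Igh lines had 3 Untreated and 3 IAADox libraries each. Single Igh INV IAADox (3 libraries) was named INV in the titles only, since its genotype label does not list an inversion. The labels do not say whether libraries of a group came from separate animals or cultures, so the spread between them may be technical.

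In V(D)J recombination the RAG recombinase cuts at recombination signals, each a heptamer and a nonamer around a spacer, and joins 2 coding ends. Cutting is efficient between a signal with a short spacer and one with a long spacer, so JH segments, which all carry the long form, normally join a D segment and not each other. Terminal transferase can add untemplated bases at the joint. Cohesin extrudes DNA past the RAG bound at the JH cluster, and Wapl is the factor that releases cohesin from DNA.

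Junction positions are given here relative to the JH coding ends, so the end of each segment is shown with its recombination signal. Sequences are of the mm9 plus strand, on which Igh reads backwards, with the heptamer and the nonamer in capitals and the last 12 coding bases before them. They span chr12:114668033-114668082 for Ighj1, chr12:114667715-114667765 for Ighj2, chr12:114667332-114667382 for Ighj3 and chr12:114666767-114666816 for Ighj4.
Ighj1: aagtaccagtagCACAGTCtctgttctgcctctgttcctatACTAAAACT
Ighj2: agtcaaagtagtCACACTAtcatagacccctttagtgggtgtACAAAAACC
Ighj3: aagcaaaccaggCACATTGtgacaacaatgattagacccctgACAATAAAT
Ighj4: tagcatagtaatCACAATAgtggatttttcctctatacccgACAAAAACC
The spacers were 22 bp for Ighj1 and Ighj4 and 23 bp for Ighj2 and Ighj3. The nonamer of Ighj2 and of Ighj4 matched the reference nonamer ACAAAAACC at 9 of 9 positions, that of Ighj1 at 7 and that of Ighj3 at 6.

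Many JH-region junctions lay at sequence that JH segments share. The last 45 coding bases of each JH, ending at 114668044, 114667726, 114667343 and 114666778, are printed with a shared block in capitals. Ighj2 and Ighj3 hold the same 14 bases, Ighj4 matches 13 of them, and Ighj1 shares a run of 7.
Ighj1: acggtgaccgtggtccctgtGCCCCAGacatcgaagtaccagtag
Ighj2: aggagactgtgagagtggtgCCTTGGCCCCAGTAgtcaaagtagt
Ighj3: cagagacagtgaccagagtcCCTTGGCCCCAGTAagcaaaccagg
Ighj4: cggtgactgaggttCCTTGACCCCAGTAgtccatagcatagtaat
The 4 joints that follow are reads through inverted JH to JH joints, each from a different group. Each had the highest mean share over the libraries of its group, among end joints with an insert of at least 10 bases. Single Igh IAADox 1 and 3 were counted apart in this mean. Ighj1 bait sequence comes first, then the inserted bases in capitals, then Ighj3 read back from its coding end, so that the segments meet head to head.
Wapl-degron Untreated: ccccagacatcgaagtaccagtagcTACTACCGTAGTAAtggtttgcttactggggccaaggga
single Igh IAADox: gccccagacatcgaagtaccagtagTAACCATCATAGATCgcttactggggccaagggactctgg
INV BM: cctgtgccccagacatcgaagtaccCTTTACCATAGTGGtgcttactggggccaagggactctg
WT BM: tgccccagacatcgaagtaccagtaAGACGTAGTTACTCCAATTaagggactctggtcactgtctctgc
These were seen as identical reads 141, 26, 61 and 28832 times in the library of each group with the most. The inserts of the Wapl-degron, single Igh and INV joints hold the capitalised parts of the D segments Ighd1-1 (chr12:114720381-114720403), Ighd2-3 (chr12:114713611-114713627) and Ighd2-8 (chr12:114689062-114689078), printed on the plus strand.
Ighd1-1: gtagcTACTACCGTAGTAAtaaa
Ighd2-3: gtagTAACCATCATAGA
Ighd2-8: gtagTTACCATAGTaga
The match covered 14, 13 and 10 bases. The WT BM insert of 19 bases matched several D segments over 9 bases. That joint took 11% of such end joints in WT BM 2 and 0.0105% in WT BM 3, and it was not listed in WT BM 1. It also took 7.64% of them in single Igh INV IAADox 1. The joint printed for single Igh IAADox took 3.08% in IAADox 1 and 3.12% in IAADox 3, and it was not listed in IAADox 2. Another Ighj1 to Ighj3 joint, with an Ighd1-1 insert, took 2.24, 1.25 and 2.66% in IAADox 1, 2 and 3.

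Several libraries stood apart. WT BM 2 and WT BM 3 held 81.2% of all JH-region junctions, with 271 and 586 listed junctions per distinct one, against 5.73 to 55.1 elsewhere. All 4 JHs served as baits, each for at least 1% of junctions, in 18 libraries. Of the other 7, single Igh Untreated 1 was 100% Ighj2 bait, single Igh INV IAADox 1 was 100% Ighj1 bait, Primary Untreated 1 was 92.3% Ighj4 bait, Wapl-degron Untreated 1 had no Ighj2 bait, single Igh IAADox 1 and 3 were 81.6% and 80.3% Ighj1 bait, and single Igh INV IAADox 3 was 0.3% Ighj3 bait. Single Igh IAADox 1 and 3 gave the same profile over the JH cluster within sampling noise (chi-square p = 0.473), while the other 26 of 27 pairs of replicates differed. This test takes listed junctions as independent, although 1 distinct junction can be listed many times. By distinct junction 11 of the 27 pairs had a chi-square p over 0.05. Among them were all pairs of Wapl-degron IAADox (chi-square p = 0.732, 0.346 and 0.559), which were still kept as separate samples. Over their whole lists single Igh IAADox 1 and 3 did differ (chi-square per degree of freedom 1.6, p = 8.74e-50, against 89.3 and 89 for either with IAADox 2). They shared no read names but were counted as 1 sample, so that this group had n = 2. In single Igh INV IAADox 1, 39.8% of the long-insert minus-strand junctions were joints listed at least 10 times as often in a library of another group, and at most 7.14% were in any other library. These were raw counts, not scaled to depth, and JH-region junctions numbered 1040 in single Igh INV IAADox 1 and 888646 in WT BM 3.

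**Figure D1:**
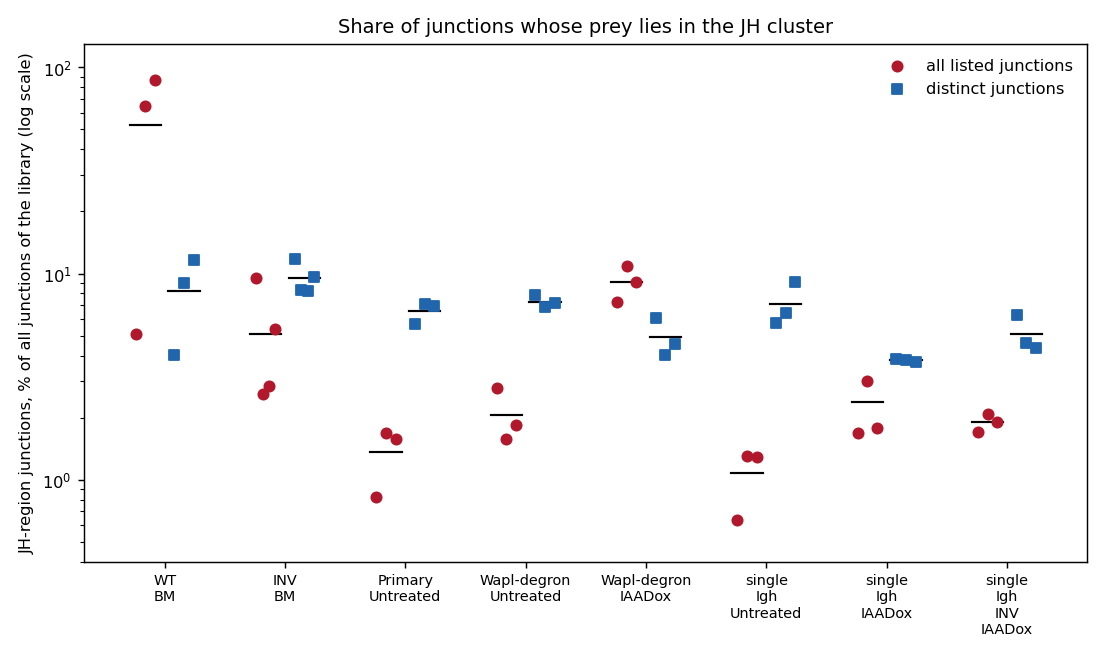
JH-region junctions as a percentage of all junctions of a library, on a log axis, by group. Circles count every listed junction and squares each distinct junction once, 1 point per library, and lines are group means (single Igh IAADox 1 and 3 averaged first). The WT BM circles run from 5.06 to 87.4%, while all squares lie between 3.71 and 11.7%.

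The share of a library's junctions that fell in the JH cluster depended on how junctions were counted, as the plot of shares by group shows. Over listed junctions it was 5.06, 64.8 and 87.4% in WT BM and 9.55, 2.6, 2.85 and 5.36% in INV BM. It was 0.819, 1.69 and 1.58% in Primary Untreated, 2.79, 1.57 and 1.84% in Wapl-degron Untreated, and 0.637, 1.30 and 1.29% in single Igh Untreated. Counted by distinct junction, all 25 libraries lay between 3.71 and 11.7%. A distinct junction ignores the inserted bases, so 1 of them can stand for many joints: WT BM 2 and WT BM 3 held 6462 and 9270 different long-insert joints (at least 10 inserted bases, minus strand) but 1217 and 1517 distinct JH-region junctions. These lists carry no molecular identifiers. The 95% Wilson intervals, 64.7 to 65% for WT BM 2, for example, take every listed junction as independent. Repeated listing of 1 junction can make them too narrow.

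**Figure D2:**
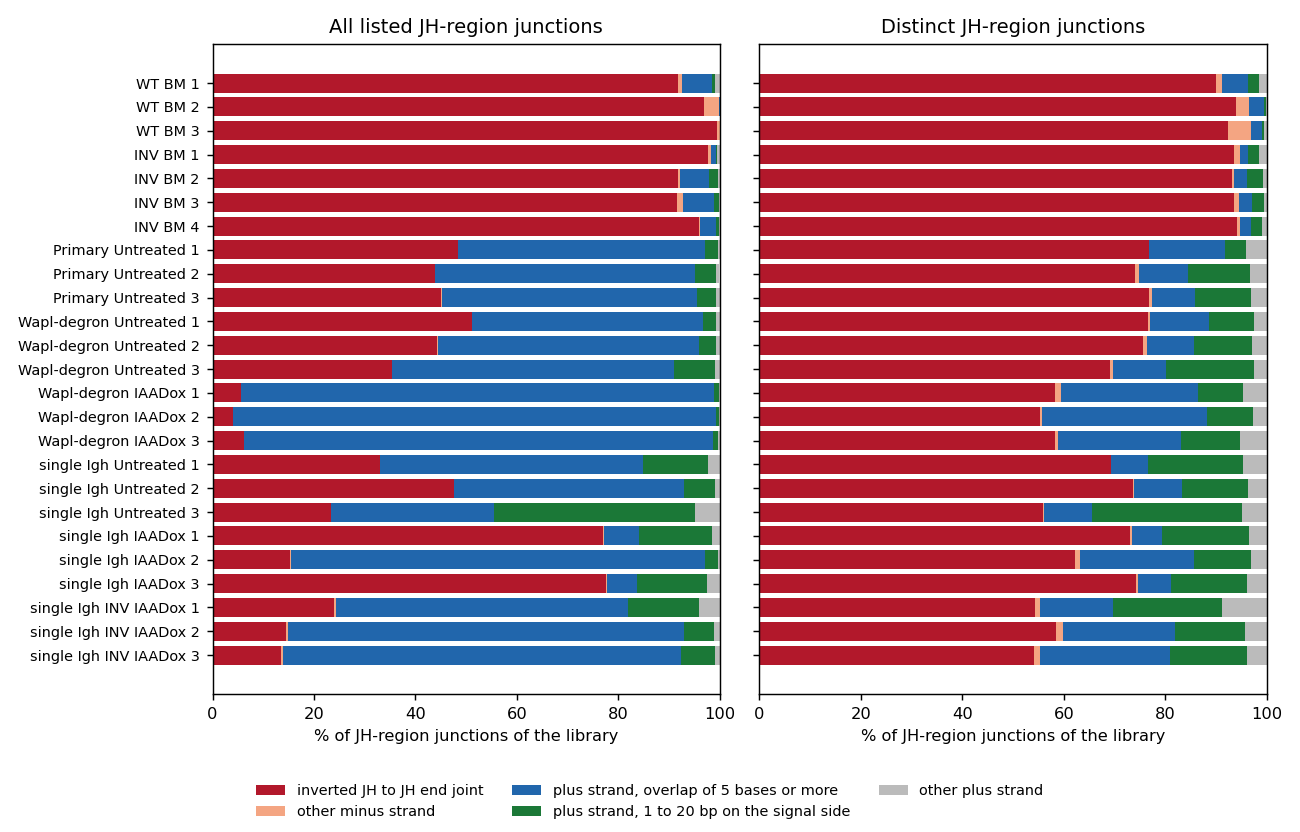
Composition of JH-region junctions in each library as a percentage, left over all listed junctions and right over distinct junctions. Inverted JH to JH end joints make up 91.5 to 99.5% of listed junctions in the 7 BM libraries and 3.97 to 6.14% in the 3 Wapl-degron IAADox libraries.

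JH-region junctions fell into 3 main classes. Inverted end joints had minus-strand prey, with bait and prey each within 30 bp of the coding end of a different JH. Overlap junctions had plus-strand prey and at least 5 bases that bait and prey could both claim. Signal-side junctions had plus-strand prey that began 1 to 20 bp past a coding end, in the heptamer or spacer. The plot of composition shows that end joints were 91.5 to 99.5% of listed JH-region junctions in the 7 BM libraries and 3.97 to 77.6% in the 18 line libraries. Overlap junctions were 0.0241 to 6.10% in BM and 5.98 to 95.1% in lines. Among distinct junctions, end joints were the largest class in all 25 libraries, at 90.0 to 94.1% in BM and 54.1 to 76.8% in lines.

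**Figure D3:**
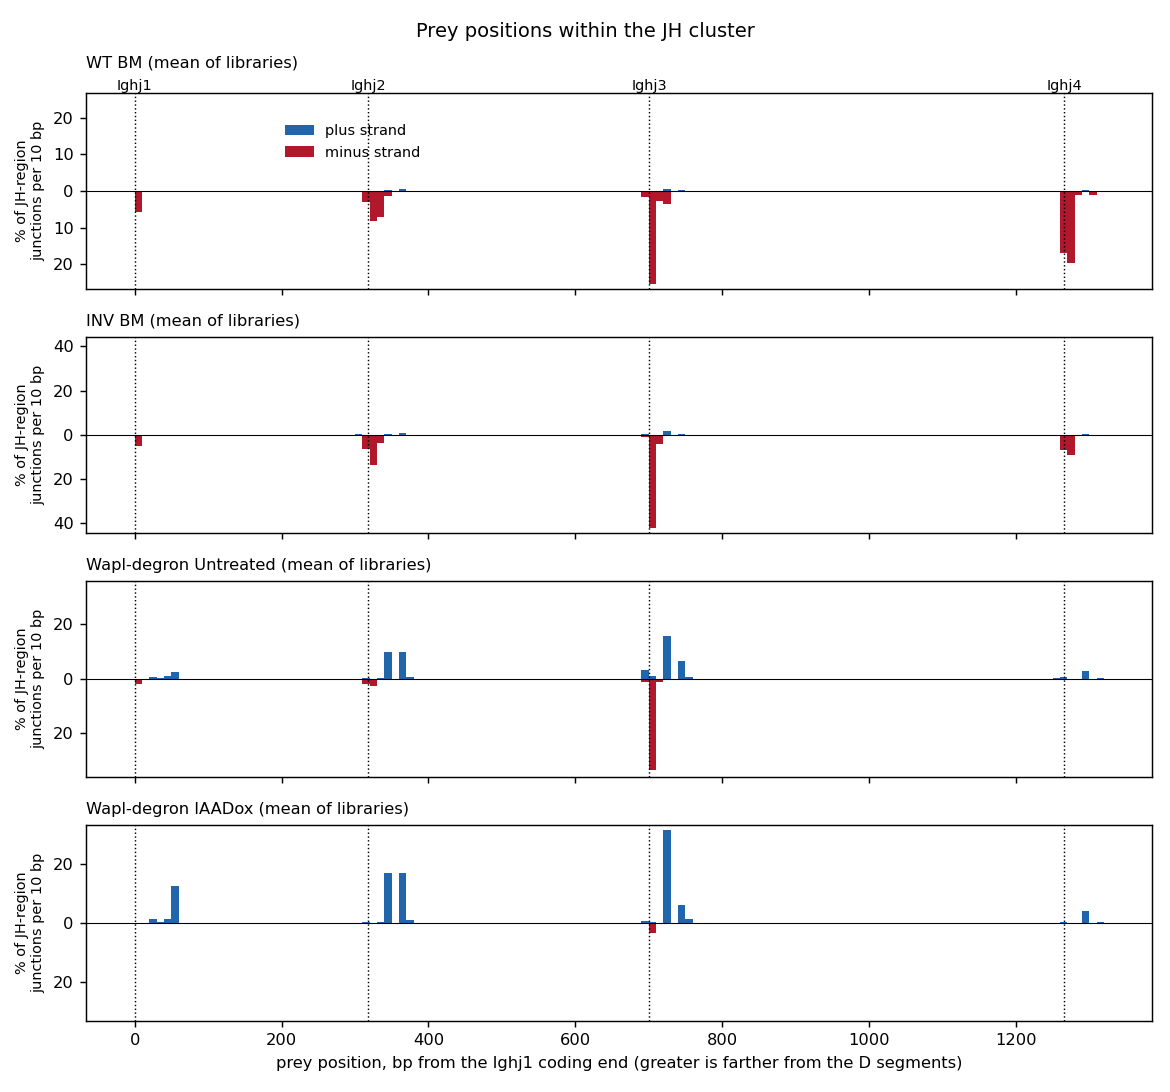
Prey positions in 4 groups as the mean percentage of JH-region junctions per 10 bp, plotted by distance from the Ighj1 coding end. Plus-strand prey rises above the axis, minus-strand prey falls below it, and dotted lines mark the 4 coding ends. Minus-strand prey sits at the dotted lines in BM, and plus-strand prey farther from the D segments than those lines leads after IAADox.

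End joints put 2 JH coding ends head to head, and trimming was modest. The median bait end in a library lay between 3 and 2 bp inside the Ighj1 coding end in BM, and between 2 bp inside it and the end itself in lines. Ighj2 was cut back farther in BM, where the median bait end lay 10 to 5 bp inside and the median prey end 12 to 5 bp inside. In lines the Ighj2 medians were 4 to 2 bp inside on the bait side and 6 to 1 bp inside on the prey side. The bait alignment reached the Ighj1 coding end, or a base past it, in 13.8 to 29.5% of end joints in BM and in 29.7 to 53.4% in lines, without overlap. The first bases of Ighd1-1, as printed above, also occur in Ighj1 across its coding end, so this alignment can take in D bases. Ighd1-1 was more frequent in inserts of untreated lines than of BM, and its part in the difference was not tested. On the prey side the Ighj1 ranges did overlap, at 11.9 to 22.4% in BM and 12.8 to 38.8% in lines, as did those of Ighj3 baits (24 to 37.1% and 21.2 to 40.8%).

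The partner of a bait was uneven. Ighj3 was the prey of Ighj1 baits in 88.4 to 98.5% of their end joints in the 16 line libraries with enough of them, and in 85.3 to 95.8% in INV BM. It was 85.4% in WT BM 1, 59.6% in WT BM 2 and 56.4% in WT BM 3. Ighj2 baits joined Ighj3 in 55.7 to 81.7% of their end joints in 13 line libraries and in 41.8 to 61.7% in INV BM. Ighj4 was their partner in 82.3% in WT BM 2 and 93.3% in WT BM 3. In lines Ighj3 baits found Ighj2 in 45.1 to 71.2% and Ighj1 in 21.9 to 47.6%, and Ighj1 led in single Igh IAADox 2 alone. Ighj4 baits joined Ighj3 in 46.3 to 74.6% and Ighj2 in 21.9 to 49.3% in lines, where Ighj2 led in single Igh INV IAADox 2 alone. In INV BM they joined Ighj3 in 24.2 to 49.7% and Ighj2 in 47.2 to 74%, and Ighj3 led in INV BM 3 alone. Ighj4 was seldom reached from Ighj1 in lines, at 0 to 10%.

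**Figure D4:**
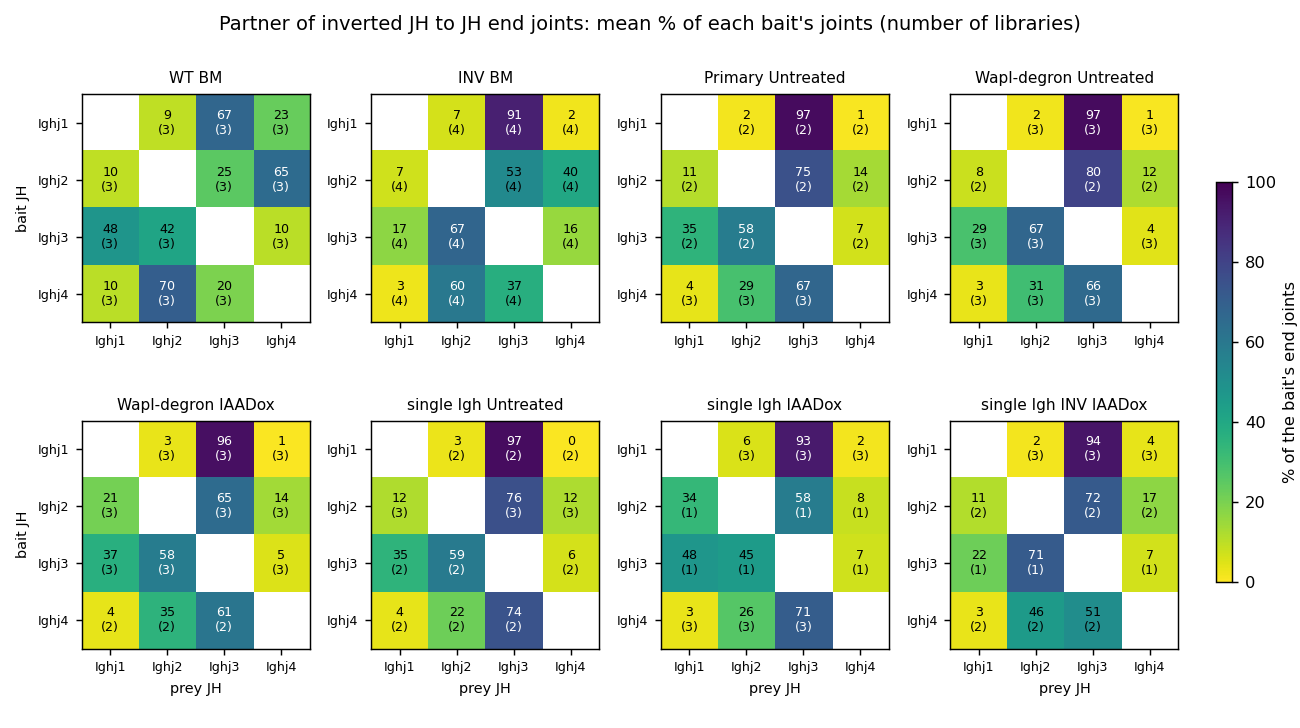
Partner choice of inverted JH to JH end joints in 8 groups. Each cell is the mean over libraries of the percentage of a bait's end joints (bait in rows) that reached a prey JH (columns), with the number of libraries with at least 50 such joints in brackets, and the Ighj1 row is darkest at Ighj3 in all 8 groups.

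Nearly all end joints held inserted bases. An insert was present in 92.5 to 100% of end joints in every library. Its median length over end joints was 16 to 19 bases in BM, 14 to 15 in untreated lines and 10 to 14 in IAADox lines. Of inserts of at least 8 bases, 59.2 to 79.3% in BM and 86.2 to 98.5% in lines contained 8 or more bases of an annotated D segment. In junctions to D-region prey on the plus strand, the same search found 15.4 to 25.5% in BM and 24.5 to 75.2% in lines. The bases of an insert outside the D match had a median of 6 to 7 in BM and of 0 to 1 in lines, with no library in between. Most of these long inserts thus read as a JH, D-matched bases and a JH in a row, with more bases outside the match in BM.

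The D segment kept a fixed direction within these joints. Where the bait JH was the one nearer the D segments, the D read as in an ordinary D to JH joint with the bait in 96.2 to 100% of D-matched inserts in 24 libraries. Where the prey JH was the nearer one, the D read the opposite way in 95 to 98.5% in BM and 78.8 to 100% in lines, a median of 98.3%. The lowest value was single Igh Untreated 1, with 33 such inserts. In both arrangements the 3′ side of the D therefore faced the JH nearer to the D segments and its 5′ side the farther JH. Each arrangement was read from its own baits.

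**Figure D5:**
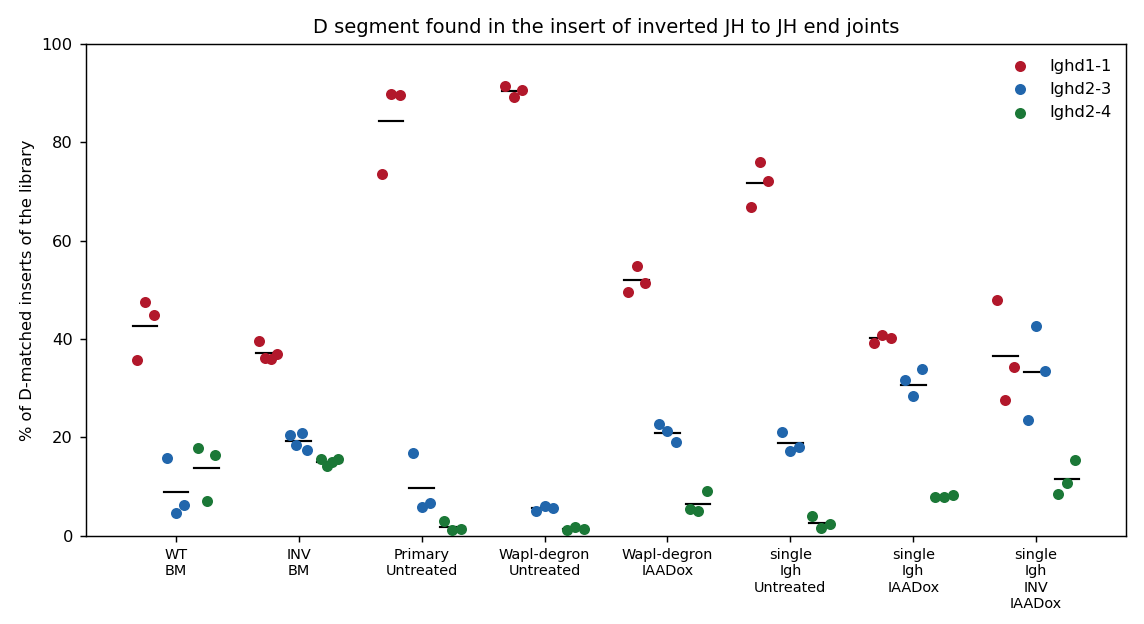
Ighd1-1, Ighd2-3 and Ighd2-4 as a percentage of the D-matched inserts of end joints, 1 point per library, with group means as lines (single Igh IAADox 1 and 3 averaged first). Ighd1-1 lies between 89.3 and 91.4% in Wapl-degron Untreated and between 49.5 and 54.9% in Wapl-degron IAADox.

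Ighd1-1, a D segment far from the JH cluster, led in the untreated lines and was less frequent after IAADox, as the plot of D segments shows. It made up 91.4, 89.3 and 90.6% of D-matched inserts in Wapl-degron Untreated and 49.5, 54.9 and 51.4% in Wapl-degron IAADox. The groups did not overlap. In the single Igh line it made up 66.8, 76.0 and 72.1% in Untreated and 39.1, 40.8 and 40.2% in IAADox, again without overlap. Ighd2-3, the next D segment toward the JHs with many inserts, was 4.93, 6.04 and 5.6% in Wapl-degron Untreated and 22.7, 21.2 and 19% in IAADox. In the single Igh line Ighd2-3 was 21.0, 17.2 and 18.1% in Untreated and 31.7, 28.4 and 33.9% in IAADox. These shares were looked at after the data were seen and have no test, and 3 libraries against 3 could not give an exact permutation p below 0.1.

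The difference in Ighd1-1 was also seen by distinct joint and within 1 pair of JHs. By distinct joint, Ighd1-1 was 87.6, 85.7 and 86.8% against 51.1, 50.6 and 51.2% in the Wapl-degron line, Untreated and IAADox. Within Ighj1 to Ighj3 joints alone it was 93.9, 92.5 and 94.5% against 53.4, 56.5 and 54.9%. By listed junctions, ordinary junctions to D prey on the plus strand showed lower shares of Ighd1-1 than the inserts in Wapl-degron and single Igh cells, Untreated and IAADox. The measures are unlike. Inserts were assigned by exact runs of at least 8 bases, with those matching several D segments kept in the total, and ordinary junctions by prey position. There Ighd1-1 took 79.0, 76.2 and 76.8% of D junctions in Wapl-degron Untreated and 23, 25.2 and 23.3% in IAADox. In the single Igh line it took 63.8, 68.0 and 69.5% of D junctions in Untreated and 30.5, 21.7 and 33.5% in IAADox. By distinct junction the difference among ordinary D junctions was smaller, 33.9, 31.4 and 32% against 22.8, 22.1 and 21.6% in Wapl-degron cells. Distinct D junctions ignore inserted bases, while the distinct joints above take them in, so the sizes of these differences cannot be compared. In single Igh cells the distinct shares overlapped, at 24.4, 27.1 and 28.6% in Untreated and 22.4, 19.5 and 28.4% in IAADox. In BM, Ighd1-1 held 35.7 to 47.6% of the inserts and 43.2 to 48.7% of ordinary D junctions, or 19.6 to 25.3% of these by distinct junction.

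Overlap junctions, which by definition lie at sequence that bait and prey share, recurred at the same positions. The junction between Ighj2 at 114667715 and Ighj3 at 114667319, 11 bp and 24 bp inside their coding ends, was the most frequent, with a mean of 7.42% of JH-region junctions over the 25 libraries and a highest value of 35.1%. It overlapped by 14 bases, the block printed in capitals above, as did Ighj3 at 114667332 with Ighj2 at 114667702 (mean 4.90%) and Ighj4 at 114666761 with Ighj3 at 114667319 (mean 4.30%). Ighj4 at 114666764 with Ighj2 at 114667677 overlapped by 42 bases and had a mean of 5.52%. Ighj1 at 114668026 with Ighj3 at 114667301 overlapped by 30 bases and had a mean of 3.23%. Both of these longer overlaps include mismatches: Ighj4 matches 13 of the 14 block bases, and Ighj1 shares a run of 7. The first of these junctions, Ighj2 with Ighj3, was seen in 23 of the 25 libraries.

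Overlap lengths left a gap between classes. Of all plus-strand JH-region junctions, a mean of 35.0% overlapped by 14 bases, 38.3% by 15 to 60 bases and 1.01% by 3 to 6 bases. In 99.1 to 100% of overlap junctions the prey read ran on past the coding end through the heptamer, so that these reads held an uncut end of the prey JH. Whether they formed in cells or in the reaction was not tested.

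Signal-side junctions were 0.00551 to 1.72% of JH-region junctions in BM and 0.71 to 39.5% in lines (median 4.95%). By distinct junction their median in lines was 12.7%, against 10.9% for overlap junctions. Ighj3 was the prey in 53.9 to 83.9% of them in the 18 line libraries, and 82.2 to 99.1% began within the 7 bases of the heptamer. In BM these values were 16.8 to 59.1% and 16.8 to 79.3%, from 49 to 232 junctions a library, and the leading junction had bait and prey in 1 JH in every BM library but INV BM 1. Single Igh Untreated 3 held 2777 of them, 39.5% of its JH-region junctions, from 277 distinct junctions, and they were its largest class. The other single Igh Untreated libraries had 12.9% and 6.16%. In single Igh Untreated 3 the leading one joined Ighj2 at 114667719 to Ighj3 at 114667346, 3 bp past the coding end, with 185 junctions.

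Wapl-degron cells with IAADox had more plus-strand and fewer minus-strand JH-region junctions than Untreated cells. Overlap junctions made up 6.79, 10.4 and 8.37% of all junctions with IAADox and 1.27, 0.808 and 1.02% without, 8.24-fold on the means. End joints made up 0.409, 0.433 and 0.555% with IAADox and 1.42, 0.697 and 0.649% without, where the 1.42% was Untreated 1, the library without Ighj2 bait. Neither class overlapped between the groups. The minus-strand share of JH-region junctions was 5.30% ± 1.12 (SD, n = 3) against 43.7% ± 7.89 (n = 3), and the share of prey within 20 bp of a coding end was 13.3% ± 1.53 against 52.8% ± 5.21. The JH-region share of all junctions was 9.08% ± 1.80 against 2.06% ± 0.638, and 6.87% against 2.63% with Ighj1 baits alone. Each of the 3 had a two-sided exact permutation p of 0.1, the smallest that 3 against 3 allows, and 0.3 after Benjamini-Hochberg adjustment over 24 tests. By distinct junction the gaps were smaller, 58% against 74.4% for the minus-strand share and 70.9% against 88.2% near coding ends, and the JH-region share went the other way, 4.91% against 7.31%.

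The same comparison was made in bins of 50 bp by strand with limma over the Igh locus, with junctions scaled to all junctions of a library. In the JH cluster 9 of 18 bins passed an adjusted p of 0.05, 8 higher and 1 lower with IAADox, where 75.1% of the 253 Igh bins passed (63.2% higher and 11.9% lower). The median log2 fold change was 0.73 over the JH bins and 3.11 over all Igh bins tested. The plus-strand bin inside Ighj3 (114667275 to 114667324) held 315, 390 and 339 junctions per 10000 with IAADox and 50.5, 40.8 and 45.7 without (log2 fold change 2.98, SE 0.13, limma adjusted p = 3.60e-13). The plus-strand bin inside Ighj2 (114667675 to 114667724) held 239, 368 and 325 against 60.2, 29.3 and 35.6 (log2 fold change 3.08). The plus-strand bin inside Ighj1 (114667975 to 114668024) held 82.3, 225 and 125 against 8.02, 4.71 and 13.4 (log2 fold change 4.14). All of these bins hold overlap positions. The minus-strand bin at the Ighj3 coding end (114667325 to 114667374), where end joints lie, was the one that was lower, at 29.7, 30.2 and 38.2 against 120, 56.3 and 52.2 (log2 fold change -1, SE 0.27, limma adjusted p = 0.00234). The value of 120 came from Untreated 1, which had no Ighj2 bait. Its junctions were 58.8% Ighj1 bait, against 28 and 27.1% in Untreated 2 and 3. Counting each distinct junction once gave 3 higher and 9 lower bins. Within sequencing run 5, which held 1 IAADox and 3 Untreated libraries, 7 bins passed, 6 of them higher, with the lone IAADox library assumed to vary like the Untreated ones. The minus-strand share there was 4.04% against a mean of 43.7%.

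In the single Igh line the JH-region share also lay higher with IAADox, at 2.38% ± 0.914 (n = 2) against 1.08% ± 0.38 (n = 3), without overlap and at the smallest exact permutation p that 2 against 3 allows (0.2). Without IAADox 2 the difference of 1.3 percentage points was 0.655, and by distinct junction it was -3.31. With Ighj1 baits alone it was 0.453, and the groups overlapped (1.76 to 3.13% against 1.92 to 2.13%). Neither line could pass the adjusted threshold in these tests of shares. The minus-strand share was 46.4% ± 43.8 (n = 2) with IAADox against 34.6% ± 12.2 (n = 3) in Untreated cells (two-sided exact permutation p = 0.8). The IAADox libraries were of unlike composition. Overlap junctions were 2.46% of all junctions in single Igh IAADox 2, which used all 4 baits, and 0.116 and 0.106% in IAADox 1 and 3, which used mostly Ighj1, against 0.330, 0.592 and 0.412% in Untreated cells. By limma 0 of 17 JH bins passed, with 58.9% of the 263 Igh bins called (49.8% higher and 9.13% lower). No JH bin (0 of 17) had an unadjusted p under 0.05 either. The median log2 fold change was 0.19 over the JH bins and 2.70 over all Igh bins tested. With IAADox 1 and 3 counted apart 2 JH bins passed, and with distinct junctions 7 did. Without IAADox 2 there were 7, from an arm of 1 sample that is assumed to vary like Untreated, and the difference in minus-strand share was 42.8 percentage points in place of 11.8. Within sequencing run 4 the minus-strand share was a mean of 46.5% in IAADox 2 and 3 and 47.5% in Untreated 2.

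The effect of IAADox on strand was set side by side in the lines. The log2 ratio of the minus-strand share, IAADox over Untreated, was -3.04 for Wapl-degron cells and 0.42 for single Igh cells, a difference of -3.47 (exact permutation within lines, 200 arrangements, p = 0.04). The share at coding ends gave -1.99 and 0.03, a difference of -2.02 (exact permutation p = 0.045). Both had an adjusted p of 0.09 over 4 measures and so missed the threshold. By distinct junction the difference in the minus-strand share was -0.41 (exact permutation p = 0.065), and that at coding ends was -0.22 (p = 0.235 by the same exact test). Bait use differed between these libraries. With Ighj1 baits alone, which leaves 2 single Igh Untreated libraries, the minus-strand difference was -2.31 (exact permutation over 120 arrangements, p = 0.0333, adjusted p = 0.133). These settings were chosen after seeing the data.

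Single Igh INV IAADox cells were lower than single Igh IAADox cells for minus-strand junctions at Ighj3, a call that was lost with a filter at 100 junctions, where 0 JH bins passed. The minus-strand bin at the Ighj3 coding end held 34.0, 22 and 21.4 junctions per 10000 against 114, 36.2 and 122 (log2 fold change -1.46, SE 0.52, limma adjusted p = 0.0241). The IAADox values of 114 and 122 come from IAADox 1 and 3, mostly Ighj1 bait and counted as 1 sample. It was 1 of 2 bins of 17 that passed, both lower, where 62.5% of the 248 Igh bins passed (8.06% higher and 54.4% lower), with medians of 0.13 over the JH bins and -3.18 over all Igh bins tested. The other lay on the plus strand at the Ighj1 end and rested on 2 junctions against 26. Minus-strand junctions were 24.3% of JH-region junctions in INV 1, and the share for the group was 17.7% ± 5.74 (n = 3) against 46.4% ± 43.8 (n = 2, exact permutation p = 0.4). Within sequencing run 9 it was a mean of 19.6% in INV 1 and 2 and 77.2% in IAADox 1. Without single Igh IAADox 2, which leaves 1 IAADox sample assumed to vary like the INV libraries, 7 bins passed and the difference in minus-strand share was -59.7 percentage points in place of -28.7. Without any 1 of the INV libraries 1 bin passed.

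Single Igh Untreated and Wapl-degron Untreated cells differed in 1 JH bin. Of 18 JH bins 1 passed, where 7.43% of the 202 Igh bins did (5.94% higher and 1.49% lower), with medians of -0.46 over the JH bins and 0.45 over all Igh bins tested. It was the plus-strand bin inside Ighj3, with 24.9, 26.7 and 16.3 junctions per 10000 against 50.5, 40.8 and 45.7 (log2 fold change -1.03, SE 0.20, limma adjusted p = 0.00758). The JH-region share, 1.08% ± 0.38 in single Igh and 2.06% ± 0.638 in Wapl-degron cells (3 libraries each), gave a two-sided exact permutation p of 0.1 and an adjusted p of 0.3, without overlap between the groups. By distinct junction the shares overlapped, with means of 7.1% and 7.31%. Without single Igh Untreated 2 there were 8 bins, without Wapl-degron Untreated 3 there were 0, and within the sequencing run that both groups share, with single Igh Untreated 1 as the lone library of its group and assumed to vary like the other group, there were 7.

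INV BM was compared with WT BM, whose JH-region share had the largest SD of the 8 groups, 42.6 percentage points. The minus-strand share was 94.8% ± 2.92 (n = 4) against 97.4% ± 4.29 (n = 3, exact permutation p = 0.343). Of 23 JH bins 6 passed in limma, all lower in INV BM and all on the minus strand, where 38.0% of the 590 Igh bins passed (12.9% higher and 25.1% lower), with medians of -0.44 over the JH bins and 0.32 over all Igh bins tested. In the bin inside Ighj4 (114666725 to 114666774), INV BM held 129, 16.9, 17.2 and 67.8 junctions per 10000 and WT BM 27.0, 1863 and 2669 (log2 fold change -3.70, SE 0.79, limma adjusted p = 2.88e-05). Another of the 6, the bin between 114667925 and 114667974, rested on WT BM 3 alone, with 37.4 per 10000 there and 0 in the other 6 libraries. In the Ighj4 bin WT BM 1 lay among the INV values, and WT BM 2 and 3 lay above them. Without WT BM 2 or without WT BM 3, 3 bins passed, and without WT BM 1 13 did, 5 of them higher. Scaled to JH-region junctions in place of all junctions, 1 bin passed. Within sequencing run 1 INV BM 1 had a minus-strand share of 98.2% and WT BM 1 one of 92.5%, and within run 2 its means were 93.6% over the 3 INV libraries of that run and 99.9% over WT BM 2 and 3. With run as a block 6 bins passed. By distinct junction 5 JH bins passed and all 5 were higher in INV BM.

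Primary Untreated cells differed from WT BM in strand. Minus-strand prey made up 45.8% ± 2.26 in Primary Untreated and 97.4% ± 4.29 in WT BM (3 libraries each), with a two-sided exact permutation p of 0.1, an adjusted p of 0.3 and no overlap. By distinct junction the values were closer, 76.3% and 94.8%, and with Ighj1 baits alone, which leaves out Primary Untreated 1, they were 71.7% and 99.2%. Of 22 JH bins 11 passed, where 41.0% of the 402 Igh bins did (3.48% higher and 37.6% lower). Medians were -1.16 over the JH bins and -2.33 over all Igh bins tested. The 7 lower ones were all on the minus strand and the 4 higher ones all on the plus strand. The minus-strand bin inside Ighj4 held 0, 0.788 and 1.07 junctions per 10000 in Primary Untreated against 27.0, 1863 and 2669. The plus-strand bin inside Ighj3 held 30, 39.1 and 38.8 against 13.5, 3.44 and 0.994 (log2 fold change 3.37, SE 1.09, limma adjusted p = 0.00627). The groups shared no sequencing run, so run and cell type cannot be told apart.

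The same exact end joints recurred between libraries. Of the 50 most frequent long-insert (at least 10 bases) end joints of an untreated line library, 18 to 45 (median 36) were also listed in another, leaving out Primary Untreated 1 and single Igh Untreated 1, whose baits differ. The Ighj1 to Ighj3 joint with the Ighd1-1 insert TACTACCGTAGTAA was listed in 16 libraries of 6 groups and took 3.36, 3.00 and 2.49% of the long-insert end joints in Wapl-degron Untreated. Of the 50 of single Igh IAADox 1, 47 were listed in IAADox 3 and 7 in IAADox 2, and of those of IAADox 3, 49 were listed in IAADox 1 and 5 in IAADox 2. Single Igh INV IAADox 2 and 3, counted as separate samples, shared 36 and 40 of their 50. INV BM 2 to 4, all of sequencing run 2, shared 21 to 32 with each other and 0 with INV BM 1 of run 1. Of the 50 of WT BM 2, 48 were listed in WT BM 3 of the same run and 0 in WT BM 1 of run 1, and of those of WT BM 3, 3 were listed in WT BM 2. In every pair of WT BM libraries such joints were at most 0.821% of the long-insert end joints of the library in which they were found. Of the 50 of WT BM 2, 17 were listed in single Igh INV IAADox 1, where they were 29.9% of long-insert end joints. Of the 50 of single Igh INV IAADox 1, 22 were listed in WT BM 2, where they were 42.6%, and 17 in WT BM 3. Of the 50 of WT BM 3, 10 and 12 were listed in single Igh INV IAADox 2 and 3. Most pairs of a BM and a line library shared none, with a median of 0.

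In end joints read from both sides, the mirror joint (same ends and insert, bait and prey exchanged) was also listed for 71.8 to 93.9% of long-insert end joints in WT BM, 41.4 to 80.9% in INV BM and 0 to 22% in lines. A mirror joint needs the partner JH as a bait, and in the line libraries that used all 4 baits the range was 8.88 to 22%. Depth was not matched either. Long-insert end joints numbered 6041 (INV BM 3, 41.4%) to 725572 (WT BM 3, 93.9%) in BM and 157 to 4932 in lines. Depth and cell type therefore cannot be told apart in this comparison. The 10 most frequent joints made up 41.3% of long-insert end joints in WT BM 2 and 45% in WT BM 3, against 12.7% in WT BM 1 and 3.67 to 5.38% in INV BM.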

How the data were processed

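Junction lists were read as deposited by the authors, with 1 line per junction and positions on mm9, per the file headers and the submitters' processing notes, which name Bowtie2. Its version, thresholds and any removal of duplicates are not given in the sources used here. The complete JH1 to JH4 lists of 25 libraries were used, and no others. The members, classes and lists were chosen with earlier results of these data known. Counts were made here from these lists: a junction was counted as listed, or once for each prey position, strand and bait end. Coding ends were read from the recombination signals, since the GENCODE end of Ighj2 lies 52 bp away. Inserts are the read bases between bait and prey alignments, and D matches are exact runs of at least 8 bases to 21 annotated D segments. Segment symbols came from a RefSeq gene table and sequences from the mm9 genome and the reads. Shares were compared by exact permutation (numpy 2.4.6), and Wilson intervals and chi-square tests used SciPy 1.17.1. Bins of 50 bp by strand with at least 10 junctions were fitted with voom and limma 3.58.1 on the libraries of the 2 groups. On simulated counts 81.6 to 92.5% of changes of 3 on the log2 scale were recovered, with 0 to 7.69% of calls false. The simulated replicates had an SD of 0.3 on the natural log scale. Some real bins varied more, such as the WT BM bin inside Ighj4, and these rates need not hold for them. Named junctions were the 5 with the highest mean share, and for each group its highest by mean over single libraries. Alternatives covered counting, windows, bins, filters, scaling, left-out replicates and the replicate block. Those by bait, sequencing run, Ighj2 end, foreign joints and the count of single Igh IAADox 1 and 3 were chosen after seeing the data.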

Additional observations from a re-analysis of the deposited data

Results flagged for a closer look

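In 38 measures of the 4 INV BM libraries, 4 had a library far from the rest, where chance sets apart about 1 group in 20. Signal-side junctions were 0.0447% of all junctions in INV BM 2, against 0.0289 to 0.0312% in the others, and 3.05% of distinct JH-region junctions in the same library. Plus-strand junctions of no named class were 0.0543% of all junctions in INV BM 1. Prey within 5 bp of the coding end made up 63% of end joints in INV BM 4, against 67.7 to 68.6% in the others.

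The log2 ratio of IAADox over Untreated was set side by side in the Wapl-degron and single Igh lines, with treatment labels shuffled within each line. A small p in this test can come from 1 line alone and does not show that the lines differ. The unadjusted exact permutation p was 0.04 for the minus-strand share (difference in log2 ratio -3.47) and 0.045 for the share at coding ends (difference -2.02). After adjustment over 4 measures both were 0.09 and missed the threshold. The minus-strand share was lower in 3 of 3 Wapl-degron IAADox libraries than in every Untreated one. In the single Igh line it was 77.2 and 77.7% in IAADox 1 and 3 and 15.4% in IAADox 2. When libraries with all 4 baits alone were kept, IAADox 2 was the only IAADox library left, and the single Igh difference was -20 percentage points. With Ighj1 baits alone the minus-strand share was 58.6% against 53.5% in the single Igh line and 14.5% against 65.5% in the Wapl-degron line, IAADox against Untreated, a difference in log2 ratio of -2.31 (exact permutation p = 0.0333, adjusted p = 0.133). By distinct junction that difference was -0.41 (exact permutation p = 0.065, adjusted p = 0.21).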

How the results depend on the processing

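Values here are differences between group means in percentage points, first group minus second. Counting distinct junctions once turned the JH share to 1.25 (INV BM against WT BM), -2.40 (Wapl-degron IAADox against Untreated), -3.31 (single Igh IAADox against Untreated) and 1.30 (single Igh INV IAADox against single Igh IAADox), the coding-end share to -5.68 in the single Igh line, and the same-JH share (bait and prey in 1 JH) to -0.829, 1.74 and -0.39 in the INV BM, Wapl-degron and single Igh INV comparisons. Within sequencing run 1, INV BM against WT BM turned to 4.50 for JH share, 5.72 for minus-strand share and -0.944 for same-JH share. Run 9 gave a JH share of 0.203 (single Igh INV), run 4 a minus-strand share of -1 (single Igh IAADox) and run 5 a coding-end share of -5.01 (single Igh against Wapl-degron Untreated). In single Igh IAADox against Untreated, libraries with all 4 baits (of IAADox only IAADox 2) gave -20.0 for minus-strand and -38.4 for coding-end share, and the latter was also -8.64 without the most frequent junction, -0.578 with a window of 10 bp, -0.17 with the annotated Ighj2 end and -6.82 with Ighj1 baits. The coding-end share was -2.22 with the annotated Ighj2 end (INV BM), 0.539 with all 4 baits (single Igh INV) and -2.85 with a window of 50 bp (single Igh against Wapl-degron Untreated). Same-JH share turned to 0.143 and -0.0714 with the region widened by 200 bp (single Igh, single Igh INV), and with Ighj1 baits to 0.054 (Wapl-degron), 0.104 (single Igh) and 0.0418 (Primary Untreated against WT BM). The causes were not tested. The Wapl-degron minus-strand and coding-end shares were lower with IAADox under every alternative run, with differences of -16.5 and -17.3 by distinct junction, against -38.4 and -39.5 by listed junction. With a window of 50 bp the gap in coding-end share was smaller still, at 85.6% with IAADox and 96.5% in Untreated cells.

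Leaving out 1 library at a time turned the sign in 5 comparisons. The JH share of single Igh INV ran from -0.573 to 0.166, the coding-end share from -3.49 to 36.3 (single Igh) and -0.736 to 9.64 (single Igh against Wapl-degron Untreated), and the same-JH share from -0.123 to 0.0199 (Wapl-degron) and -0.439 to 0.307 (Primary Untreated). Without 1 library the minus-strand difference also ran from 6.16 to 42.8 (single Igh), -59.7 to -26.8 (single Igh INV), -5.16 to -1.41 (INV BM) and -15.5 to -3.41 (single Igh against Wapl-degron Untreated), and the coding-end difference from -57.4 to -16.6 (single Igh INV) and 1.83 to 4.83 (INV BM). The JH share ran from -71 to -29.9 (INV BM), -74.8 to -33.6 (Primary Untreated), 0.655 to 1.42 (single Igh) and -1.24 to -0.629 (single Igh against Wapl-degron Untreated). Counts of JH bins ran from 3 to 13 (INV BM), 8 to 10 (Wapl-degron), 0 to 7 (single Igh), 1 to 7 (single Igh INV), 0 to 8 (single Igh against Wapl-degron Untreated) and 7 to 12 (Primary Untreated).

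Counts of called JH bins also moved with other choices. With JH-region junctions as the library size they were 1 (INV BM), 1 (single Igh), 1 (single Igh INV) and 3 (single Igh against Wapl-degron Untreated). A filter at 1 junction gave 17 (Wapl-degron), 5 (single Igh) and 6 (single Igh against Wapl-degron Untreated), a filter at 100 gave 0 (single Igh INV), and bins of 20 bp gave 15 (Wapl-degron). Distinct junctions gave 7 (single Igh), 4 (single Igh INV) and 2 (single Igh against Wapl-degron Untreated). Counting single Igh IAADox 1 and 3 apart gave 2 and 6 in the single Igh and single Igh INV comparisons, and the shared run gave 4 (single Igh INV) and 7 (single Igh against Wapl-degron Untreated), each with 1 library in an arm that is assumed to vary like the other.

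With the replicate number as a block the counts were 2 (single Igh), 7 (single Igh INV) and 4 (single Igh against Wapl-degron Untreated), against 0, 2 and 1 without it, and 5, 9 and 13 in the INV BM, Wapl-degron and Primary comparisons. Deviations of same-numbered libraries correlated at -0.65 to 0.70, and in no comparison was every pair above 0.1, so the numbers were not taken to pair them. The depth of the JH cluster, 1040 junctions in the smallest library, limits bins with few junctions.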
